A study of Mus musculus with 28 samples.

Results

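The genes described here are the nuclear-encoded subunits of the oxidative phosphorylation system, chosen by symbol alone: those beginning with Ndufa, Ndufb, Ndufc, Ndufs or Ndufv and a number, Sdha to Sdhd, those beginning with Uqcr, Cox4 to Cox8, and Atp5, without symbols that end in -ps. The rule found 84 genes among the 24391 symbols of the count table, of which 37 belong to complex I, 4 to complex II, 8 to complex III, 18 to complex IV and 17 to complex V by their symbol. Of the 84, 83 passed the filter on low counts in every comparison, and Cox8c, an isoform known from testis, had no count in any library. The rule leaves out Cyc1, the cytochrome c1 subunit of complex III, which is counted below with the electron carriers. It takes in Ndufa4, whose protein is now placed in complex IV, Atp5sl, which is an assembly factor of complex I now named Dmac2, and Cox7a2l, which joins complexes III and IV into supercomplexes.

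Motor cortex came from 14 mice of genotype Cx3CR1-Cre/TRAPfl, in which Cre driven by Cx3cr1 switches on a tagged ribosomal protein. Of these mice, 7 ran on a rotarod for 1 h (4 in cohort 1 and 3 in cohort 2) and 7 stayed in their home cage (4 in cohort 1 and 3 in cohort 2), and both conditions carried the same alleles and had both sexes. Each mouse gave a TRAP library, the mRNA that came down with tagged ribosomes, and a total lysate library, which makes 28 libraries, and the ages of the mice were not given in the sources used here. Cx3cr1 is expressed by microglia and also by border-associated macrophages, so that the driver does not separate these cells.

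Oxidative phosphorylation moves electrons from NADH through complex I, and from succinate through complex II, to ubiquinone, then through complex III and cytochrome c to complex IV, which reduces oxygen. Complexes I, III and IV pump protons across the inner mitochondrial membrane, and complex V, the ATP synthase, uses that gradient to make ATP. Microglia use both glycolysis and oxidative phosphorylation, while firing and synaptic work in neurons rest heavily on oxidative phosphorylation.

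Total counts ran from 70090518 to 241381845 per library. The labels call every library microglia, the total lysate included. The purification was checked on marker genes: Cx3cr1 ranged from 961 to 2255 CPM (a library's share of counts, scaled over all 28 libraries with TMM factors; median 1658) in TRAP, against 10.5 to 18.2 CPM (median 13.4) in total lysate. All 12 microglial and all 7 macrophage markers were called higher in TRAP, and all 10 pan-neuronal markers were called lower, with a median log2 fold of -1.43. Neuronal RNA was still present in TRAP: the pan-neuronal markers summed to 1864 to 8594 CPM in TRAP libraries of run mice and 1893 to 6456 CPM in those of home cage mice, against 8070 to 17517 CPM and 8286 to 15883 CPM in the total lysate of the same conditions. The part of neuronal RNA in the TRAP levels of the subunits was not tested. In bulk tissue, fewer cells of a type and less RNA per cell cannot be told apart. In 2 mice that ran in cohort 2, Male1 and Female2, both libraries went against the sex in their label: Y-linked genes were at 0 CPM in both libraries of Male1, and reached 15.4 CPM in TRAP and 43.5 CPM in total lysate of Female2. These Y-linked values are not on the TMM scale of the CPM above. On that scale the highest Y-linked sum in total lysate of cohort 2 was 34.7 CPM. Medians and cohort differences that rest most on Male1 and Female2 are given with and without them. Counts of calls within cohort 2 are given with all mice only.

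Sequences of the gene starts are shown for sets of near-identical or related subunits whose transcripts differed between TRAP and total lysate (values follow). Atp5g1, Atp5g2 and Atp5g3 encode the c subunit of the ATP synthase rotor, with the same mature protein from 3 genes and different import sequences, and Cox7a2l is a paralogue of Cox7a2. Each line holds 250 bases before and 50 after the RefSeq start on GRCm38.p6, read on the gene's strand, with matches to the NRF1 motif GCATGCGC, on either strand, in capitals. NRF1 is a transcription factor known to bind many respiratory chain genes.
Atp5g2, chr15:102670998-102671297, minus strand: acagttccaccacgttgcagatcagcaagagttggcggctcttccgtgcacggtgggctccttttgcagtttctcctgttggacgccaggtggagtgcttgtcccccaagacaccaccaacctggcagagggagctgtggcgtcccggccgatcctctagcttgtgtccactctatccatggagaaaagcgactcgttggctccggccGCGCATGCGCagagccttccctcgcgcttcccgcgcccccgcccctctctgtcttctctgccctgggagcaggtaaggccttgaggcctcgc
Atp5g1, chr11:96075582-96075881, minus strand: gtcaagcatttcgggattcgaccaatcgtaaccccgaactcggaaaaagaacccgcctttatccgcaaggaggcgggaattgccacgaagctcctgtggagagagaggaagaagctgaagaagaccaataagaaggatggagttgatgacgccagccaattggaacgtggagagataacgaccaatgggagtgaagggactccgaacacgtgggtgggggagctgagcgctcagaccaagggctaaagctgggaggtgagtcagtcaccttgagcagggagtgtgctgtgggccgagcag
Atp5g3, chr2:73911277-73911576, minus strand: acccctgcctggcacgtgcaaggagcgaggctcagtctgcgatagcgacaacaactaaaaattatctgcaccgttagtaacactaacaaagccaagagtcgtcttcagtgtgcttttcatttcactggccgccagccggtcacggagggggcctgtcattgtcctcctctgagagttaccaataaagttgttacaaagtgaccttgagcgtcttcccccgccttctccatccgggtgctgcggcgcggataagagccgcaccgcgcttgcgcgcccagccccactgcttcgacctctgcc
Cox7a2l, chr17:83514284-83514583, minus strand: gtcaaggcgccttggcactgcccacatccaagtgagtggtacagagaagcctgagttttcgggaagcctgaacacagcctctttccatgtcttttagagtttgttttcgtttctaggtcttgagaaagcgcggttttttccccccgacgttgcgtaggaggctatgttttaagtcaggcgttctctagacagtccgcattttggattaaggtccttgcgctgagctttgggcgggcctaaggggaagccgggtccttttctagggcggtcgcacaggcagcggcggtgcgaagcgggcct
Cox7a2, chr9:79759804-79760103, minus strand: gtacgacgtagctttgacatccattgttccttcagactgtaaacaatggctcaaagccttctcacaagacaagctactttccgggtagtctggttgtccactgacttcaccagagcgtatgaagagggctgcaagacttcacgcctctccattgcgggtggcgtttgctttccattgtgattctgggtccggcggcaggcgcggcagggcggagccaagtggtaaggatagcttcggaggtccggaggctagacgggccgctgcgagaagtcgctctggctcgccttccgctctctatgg

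The NRF1 letters were found only in the window of Atp5g2 among the 5 shown, as a pair of overlapping matches on opposite strands. Of the 66 subunit genes with a window under their symbol in the RefSeq table, 10 held GCATGCGC on either strand (15.2%), against 2.80% of all 27025 windows. The ETS motif CCGGAAGT, also searched on both strands, stood in 5 of the 66 (7.58%), against 4.00% of all windows, and 1 subunit gene held both. The NRF1 letters were found in 2 of 10 windows of genes called higher in TRAP (20.0%) and in 3 of 35 of those called lower (8.57%). Windows of the subunit genes held a median of 19 CG pairs and 57.2% G and C, against 7 and 52.7% over all windows. Windows alike in base composition were not compared, and the NRF1 letters were shortened after a longer form had been searched. A match describes these letters only.

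Per length, the subunits made up less of the TRAP libraries than of the total lysate. Their TPM, a share of the library per transcript length (from the counts and summed exon lengths), added up to 43143 ± 8102 TPM in TRAP and 93477 ± 19453 TPM in total lysate (SD, n = 14 libraries each). The spread held the cohorts apart: TRAP libraries ranged from 32231 to 39984 TPM in cohort 2 and from 43429 to 55615 TPM in cohort 1, and total lysate from 69553 to 76922 TPM in cohort 2 and from 101981 to 116620 TPM in cohort 1. Complex I gave the highest sum, 19251 ± 4804 TPM in TRAP and 41482 ± 12440 TPM in total lysate. Complex II, with its 4 genes, gave the lowest, 1186 ± 182 TPM in TRAP and 2225 ± 276 TPM in total lysate. Complex III summed to 6451 ± 814 TPM in TRAP and 12607 ± 1799 TPM in total lysate, complex IV to 10743 ± 1344 TPM in TRAP and 24641 ± 2161 TPM in total lysate, and complex V to 5512 ± 1382 TPM in TRAP and 12521 ± 3029 TPM in total lysate. TPM is a share of each library, so these sums do not give absolute amounts. TRAP stood below total lysate in every complex also with the median length of the coding transcripts, 39511 ± 8077 TPM against 83782 ± 19456 TPM over all subunits.

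Within a complex the order of the genes depended in part on the length used, and only orders that held with summed exons, the longest transcript and the median coding transcript are given. All are orders of means over both cohorts, and orders within a cohort are not given here. In complex I, Ndufa1, Ndufa4 and Ndufb6, small accessory subunits in the older assignment, were among the 5 highest in both fractions. Ndufs1, the core subunit with most of the iron-sulphur clusters, lay below the middle of the complex in both, with 17.4 ± 6.4 TPM in TRAP and 68.1 ± 13.8 TPM in total lysate by summed exons. Atp5j, the F6 subunit of the ATP synthase stalk, was the highest of complex V in both fractions, with 832 ± 486 TPM in TRAP and 1674 ± 959 TPM in total lysate, and Atp5g3 followed it; the SDs of these neighbours overlap. Uqcrc2, a core protein of complex III, was the lowest of its complex in TRAP at 99.0 ± 22.6 TPM. The tissue-restricted isoforms Cox6a2, Cox4i2, Cox7a1, Cox7b2, Cox6b2, Cox8b and Cox8c filled the 7 lowest places of complex IV in both fractions. Cox4i2 averaged 9.47 ± 4.72 TPM in TRAP and 7.18 ± 3.81 TPM in total lysate, where its common counterpart Cox4i1 averaged 1266 ± 317 TPM in TRAP and 3016 ± 370 TPM in total lysate.

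TRAP was then set against total lysate in 1 edgeR quasi-likelihood fit over all 28 libraries, with condition and cohort as terms; a gene is called when its Benjamini-Hochberg adjusted p over all 16716 genes tested is under 0.05. Of the 83 subunits tested, 14 were called higher in TRAP, where 34.0% of all genes were, and 44 were called lower, where 40.1% of all genes were. The median log2 fold was -0.25 over the subunits and -0.20 over all genes. The normalisation sets where 0 lies: TMM factors were 0.72 to 0.96 in TRAP and 1.10 to 1.29 in total lysate. Scaling by library totals instead moved the median of all genes to -0.71 and that of the subunits to -0.77. By library totals 6 subunits were called higher and 70 lower. The shares of all genes called by library totals are not given here, so the 6 and 70 only describe the subunits. Of the 24 subunits with a fold above 0 by TMM, 16 had one below 0 by library totals. All 44 genes called lower by TMM were also called lower by library totals, and 6 of the 14 called higher stayed so: Ndufa4l2, Cox7a2l, Cox4i2, Atp5g2, Ndufa13 and Sdhc. Ndufb11 and Ndufv3 turned to lower calls, and Atp5d, Cox6b2, Ndufa2, Ndufa6, Ndufb7 and Ndufs7 were no longer called. The medians by complex were -0.22 for complex I, 0.01 for II, -0.24 for III, -0.53 for IV and -0.33 for V, and the folds within each complex spread over more than 1 log2 unit (plot of the folds by complex).

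**Figure D1:**
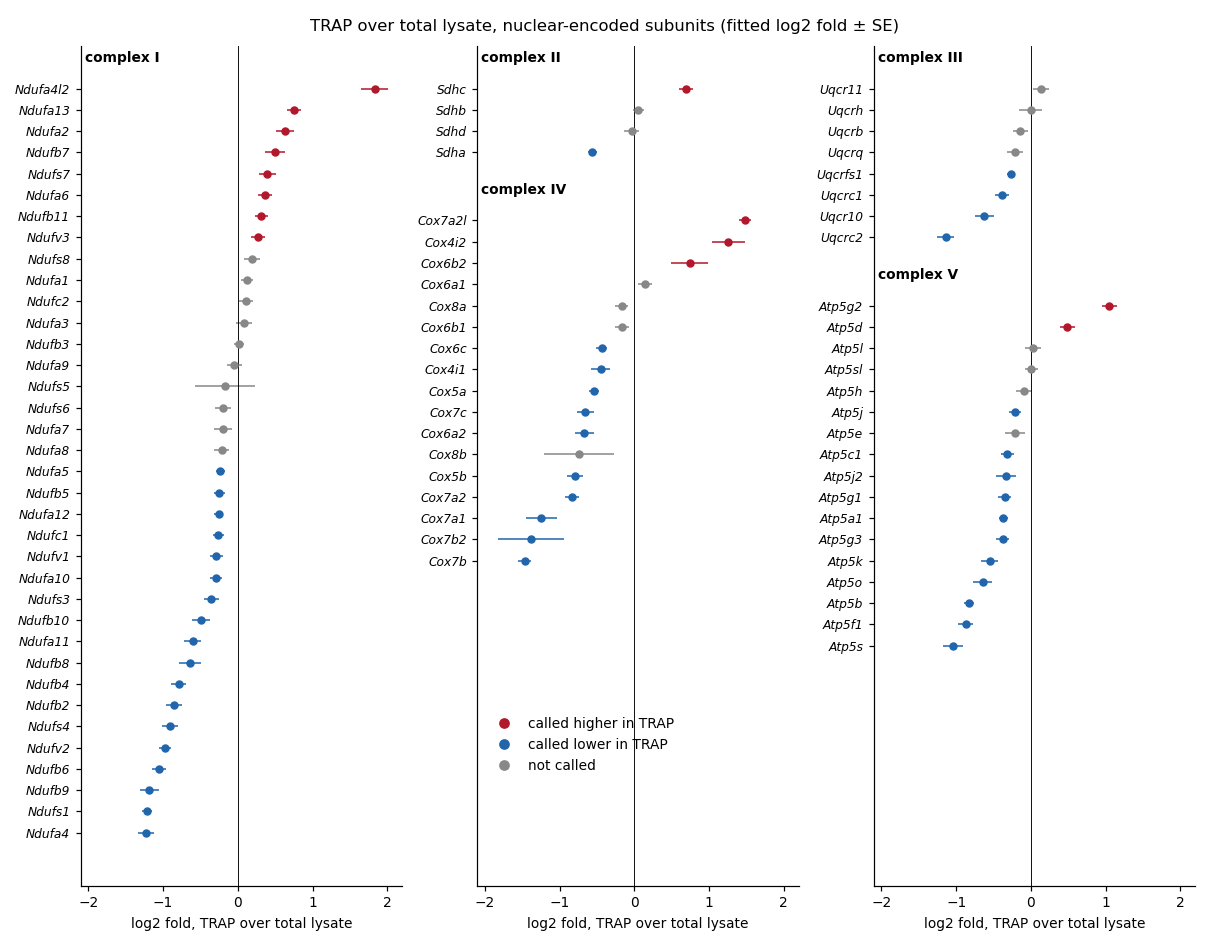
Fitted log2 fold of TRAP over total lysate (x axis) for the tested subunits but 1, by complex, with bars of ± SE from the fit over 28 libraries; red marks those called higher, blue those called lower and grey those not called. Each of complexes I, II, IV and V holds calls in both directions, and complex III holds 4 lower calls and none higher.

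In complex I, 8 of 37 were called higher and 18 lower. Of the core subunits, which carry the flavin and the iron-sulphur clusters, Ndufs1 ranged from 40.5 to 90.9 CPM (median 65.8) in TRAP and from 96.3 to 202 CPM (median 172) in total lysate, a log2 fold of -1.21 ± 0.07 (SE; adjusted p = 4.7e-16 in edgeR). The libraries of the fractions did not overlap. Ndufv2, which holds an iron-sulphur cluster of the NADH-binding arm, fell by 0.98 ± 0.08 on the log2 scale in TRAP, Ndufs3 by 0.35 ± 0.10 and Ndufv1, the flavin-binding subunit, by 0.29 ± 0.09 (adjusted p = 5.6e-12, 0.0026 and 0.0042 in edgeR). Ndufs8 had 0.19 ± 0.10, not called (adjusted p = 0.098 in edgeR), and Ndufs7 was called higher by TMM with 0.40 ± 0.12, but had -0.13 ± 0.12 by library totals. The core subunits named here thus ran from -1.21 to 0.40 in their TRAP over lysate fold.

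The extremes of complex I were a pair of paralogues. Ndufa4l2, known as a hypoxia-induced gene that is enriched in pericytes of the brain, ranged from 1.90 to 16.5 CPM (median 5.68) in TRAP and from 0.737 to 3.33 CPM (median 1.51) in total lysate, with a log2 fold of 1.83 ± 0.18 (adjusted p = 2.5e-10 in edgeR). Ndufa4 ranged from 272 to 1215 CPM (median 885) in TRAP and from 516 to 3861 CPM (median 2365) in total lysate, with a log2 fold of -1.22 ± 0.11 (adjusted p = 1.5e-11 in edgeR). The ranges of both overlapped between fractions, across cohorts that lay far apart; within a mouse the ratio of Ndufa4l2 to Ndufa4 counts, which no scaling changes, was higher in TRAP in 14 of 14 mice, by 1.88 to 3.83 log2 units. Of the markers of vessel cells, all 8 endothelial markers were called higher in TRAP (median log2 fold 1.90), and 5 of 11 mural markers were called higher and 1 lower (median 0.51). Mural markers summed to 69.0 to 291 CPM in TRAP and 49.7 to 109 CPM in total lysate of run mice, and to 72.2 to 312 CPM and 49.3 to 113 CPM in the same fractions of home cage mice, and their part in the levels of Ndufa4l2 was not tested. The second highest of the complex was Ndufa13, also known as Grim19, with a log2 fold of 0.75 ± 0.09. At the low end Ndufs1, given above, came next to Ndufa4, and then Ndufb9 with -1.19 ± 0.13.

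The 4 subunits of complex II spread in both directions. Sdhc, 1 of the membrane anchors, ranged from 84.6 to 193 CPM (median 103) in TRAP and from 56.4 to 88.5 CPM (median 66.8) in total lysate, with a log2 fold of 0.69 ± 0.09 (adjusted p = 1.0e-07 in edgeR; 0.17 ± 0.08, still called, by library totals). Sdha, the flavoprotein that oxidises succinate, ranged from 303 to 428 CPM (median 365) in TRAP and from 478 to 651 CPM (median 519) in total lysate, with a log2 fold of -0.56 ± 0.06 (adjusted p = 6.9e-10 in edgeR). The libraries of the fractions overlapped slightly for Sdhc and did not overlap for Sdha. Sdhb, the iron-sulphur subunit, had 0.05 ± 0.07 and Sdhd, the other anchor, -0.04 ± 0.10, neither called.

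In complex III, 4 of 8 were called lower and 0 higher by edgeR (5 lower and 0 higher by DESeq2, and 0 higher at an unadjusted p under 0.05). Uqcrc2 had the lowest fold: it ranged from 78.4 to 147 CPM (median 115) in TRAP and from 173 to 402 CPM (median 265) in total lysate, with no overlap, and a log2 fold of -1.14 ± 0.12 (adjusted p = 3.4e-10 in edgeR). Its partner core protein Uqcrc1 had -0.38 ± 0.09 and Uqcrfs1, the Rieske iron-sulphur protein, -0.27 ± 0.05, both called lower. Uqcr10, a small subunit, fell by 0.63 ± 0.13 on the log2 scale. Uqcr11 and Uqcrh, also small subunits, had 0.14 ± 0.11 and -0.002 ± 0.15, neither called.

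Complex IV had the lowest median, with 3 of 17 called higher and 10 lower. Cox7a2l, on chromosome 17, ranged from 234 to 386 CPM (median 274) in TRAP and from 93.3 to 124 CPM (median 103) in total lysate, with a log2 fold of 1.48 ± 0.08 (adjusted p = 1.8e-16 in edgeR; 0.97 ± 0.08 by library totals). It was the only subunit of the 84 for which every TRAP library lay above every lysate library, while 5 (Ndufs1, Ndufb9, Sdha, Uqcrc2 and Atp5b) lay wholly below and 78 overlapped. Cox8c, with no count in any library, is among the 78. The share of all genes without overlap is not given here, so these counts only describe the subunits. Cox7b, a small structural subunit, ranged from 112 to 627 CPM (median 494) in TRAP and from 278 to 2266 CPM (median 1505) in total lysate, with a log2 fold of -1.47 ± 0.09 (adjusted p = 1.0e-15 in edgeR), the lowest of all subunits. The fractions overlapped when both cohorts were pooled, and the fold was -1.29 ± 0.12 within cohort 2 and -1.61 ± 0.11 within cohort 1. The other broadly expressed subunits Cox4i1, Cox5a, Cox5b, Cox6c, Cox7a2 and Cox7c were called lower, with log2 folds of -0.83 to -0.44, while Cox6a1, Cox6b1 and Cox8a were not called.

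Isoforms of complex IV parted between the fractions (plot of isoform levels). Cox4i2, the isoform known from lung and induced by low oxygen, ranged from 0.853 to 6.56 CPM (median 3.10) in TRAP and from 0.478 to 2.78 CPM (median 1.35) in total lysate, with a log2 fold of 1.26 ± 0.22. Cox4i1 ranged from 600 to 1872 CPM (median 822) in TRAP and from 986 to 1729 CPM (median 1212) in total lysate, with a log2 fold of -0.45 ± 0.12 (adjusted p = 6.8e-06 for Cox4i2 and 0.0017 for Cox4i1 in edgeR). Within cohort 2 alone, Cox4i1 had 0.04 ± 0.13, and -0.32 ± 0.16 without the 2 mice, not called in either. Both overlapped between fractions, but the ratio of Cox4i2 to Cox4i1 was higher in TRAP in 14 of 14 mice, by 0.83 to 3.30 log2 units. Cox4i2 is also known from mural cells of the brain, whose markers are given above, and their part in its level was not tested. Cox6a2, the isoform of heart and muscle that is also known from parvalbumin interneurons, had a log2 fold of -0.67 ± 0.13, and its ratio to Cox6a1 was lower in TRAP in all 14 mice (0 higher); the 6 parvalbumin interneuron markers were all called lower, with a median of -1.43. Cox7a1, also a heart and muscle isoform, had -1.25 ± 0.21 beside -0.83 ± 0.09 for Cox7a2, and its ratio to Cox7a2 was higher in TRAP in 4 of 14 mice. Cox6b2, known from testis, had 0.74 ± 0.25, and Cox7b2, likewise, -1.38 ± 0.44, at medians of 1.62 and 0.354 CPM in TRAP and 0.984 and 2.16 CPM in total lysate. Cox8b had -0.74 ± 0.47, not called, and Cox8c could not be tested.

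**Figure D2:**
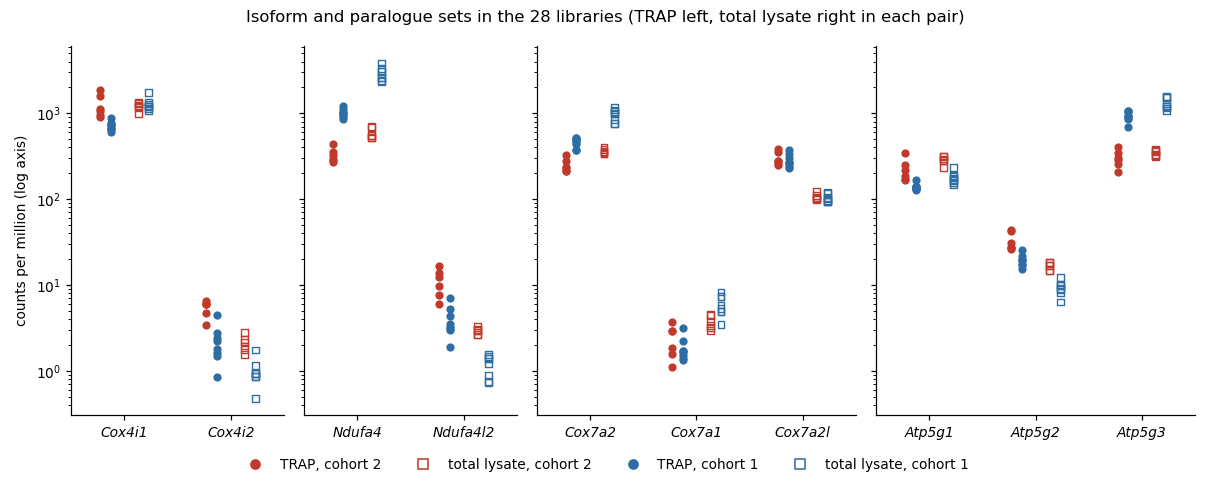
CPM on a log axis in each of the 28 libraries for Cox4i1 and Cox4i2, Ndufa4 and Ndufa4l2, the Cox7a set and the Atp5g set; filled circles are TRAP and open squares total lysate, in red for cohort 2 and blue for cohort 1. Cox4i2, Ndufa4l2 and Atp5g2 lie below their counterparts in both fractions, with medians higher in TRAP than in total lysate, and all Cox7a2l points of TRAP lie above all of total lysate.

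In complex V, 2 of 17 were called higher and 11 lower. The catalytic F1 subunits were called lower: Atp5b ranged from 667 to 1088 CPM (median 776) in TRAP and from 1297 to 1566 CPM (median 1405) in total lysate, with a log2 fold of -0.83 ± 0.07 (adjusted p = 1.4e-12 in edgeR), and its libraries did not overlap. Atp5a1 had -0.37 ± 0.06 and Atp5c1, the central stalk, -0.32 ± 0.09 (within cohort 2, 0.02 ± 0.10 with all mice and -0.05 ± 0.15 without the 2 mice, not called in either). Atp5s, a factor that couples the parts of the enzyme, had the lowest fold of the complex, -1.04 ± 0.13, and Atp5f1, of the outer stalk, had -0.87 ± 0.10. Atp5d, the delta subunit of F1, was higher by TMM with 0.49 ± 0.10 and had -0.03 ± 0.11 by library totals.

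Among the 3 genes of the c subunit, whose starts are printed above, Atp5g2 was called higher in TRAP, while Atp5g1 and Atp5g3 were called lower with similar folds. Atp5g2 ranged from 15.5 to 44.3 CPM (median 23.7) in TRAP and from 6.34 to 18.2 CPM (median 11.2) in total lysate, with a log2 fold of 1.05 ± 0.10 (adjusted p = 1.7e-10 in edgeR). Atp5g1 had medians of 153 CPM in TRAP and 213 CPM in total lysate and a log2 fold of -0.35 ± 0.09, and Atp5g3 medians of 772 and 1120 CPM and -0.38 ± 0.09. The ratio of Atp5g2 to Atp5g1 was higher in TRAP in 14 of 14 mice, by 0.97 to 1.74 log2 units, and that of Atp5g2 to Atp5g3 likewise, by 0.63 to 2.29, while Atp5g1 over Atp5g3 was higher in 8 of 14. A coding transcript of Atp5g2 shares 100% of its 50-base words with other genes, foremost the transcribed pseudogene Gm10175. Atp5g1 shares 66.0% with other genes, foremost the pseudogene Gm10039. Counts of both are therefore uncertain. Of the 84 subunits, 53 shared under 10% of their words, and of the 52 of these that were tested, 10 were called higher and 25 lower.

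Other genes of the pathway, from 8 lists of assembly factors, electron carriers, regulators of mitochondrial biogenesis and the tricarboxylic acid cycle, held 80 tested genes of 85. Of these, 17 were called higher in TRAP (34.0% of all genes were) and 49 lower (40.1% of all genes). Of the assembly factors, 10 of 14 for complex I were lower and 3 higher, 2 of 4 for complex II were lower, 5 of 6 for complex III were lower and 1 higher, 7 of 21 for complex IV were lower and 6 higher, and all 4 for complex V were lower. Nubpl, which delivers iron-sulphur clusters to complex I, had a log2 fold of 1.73 ± 0.11, and Ndufaf5, a methyltransferase for the same complex, -1.80 ± 0.14. Lyrm7, which places the Rieske protein, had -1.97 ± 0.12, Cox11, which brings copper to complex IV, -1.40 ± 0.07, and Coa4 1.10 ± 0.16. Among carriers (1 higher and 5 lower of 6), Etfb of the electron transfer flavoprotein had 1.39 ± 0.14 and Cycs, cytochrome c, -0.65 ± 0.07. Of the tricarboxylic acid cycle, 11 of 13 were lower and 2 higher, with Suclg2, the GTP-specific succinyl-CoA ligase subunit, at 2.07 ± 0.08 and its ATP-specific counterpart Sucla2 at -1.25 ± 0.10; Idh3a had -1.64 ± 0.07. Of 12 regulators, 4 were higher and 5 lower: Nrf1 had 1.25 ± 0.10 and Gabpa, an ETS factor, 0.88 ± 0.11, while the coactivator Ppargc1a had -0.93 ± 0.16 and the mitochondrial RNA polymerase Polrmt -0.70 ± 0.16.

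The TRAP over lysate fold of the subunits differed between the cohorts. In cohort 2, 23 were called higher in TRAP (29.7% of all genes were) and 28 lower (34.5% of all genes), with a median of -0.11, and in cohort 1, 9 were called higher (30.0% of all genes) and 55 lower (33.8% of all genes), with a median of -0.48. By the test of the difference itself, 39 of 83 had a higher fold in cohort 2 than in cohort 1, where 7.52% of all 17612 genes did, and 0 had a lower one, where 11.4% of all genes did (0 also by DESeq2 and 0 at an unadjusted p under 0.05). Of the 39, 19 belonged to complex I, 2 to II, 6 to III, 3 to IV and 9 to V. Over all tested subunits of each complex, called or not, the median differences were 0.46, 0.35, 0.64, 0.26 and 0.44 log2 units in that order. Spearman's rho of the difference with coding transcript length was -0.26 across 17446 genes and -0.27 across the 83 subunits. The subunits had a median length of 669.5 bases, against 2169 for all genes tested for the TRAP over lysate fold. The part of transcript length in the 39 calls was not tested. The 23 and 28 calls within cohort 2 were counted with all mice, the 2 run mice named above included. How far these calls rest on those mice is not given as a count, since 1 run mouse of cohort 2 is left without them. Without the 2 run mice, the median within cohort 2 was -0.34. In the difference between cohorts, 5 subunits were then called, all higher, and with home cage mice alone 3, all higher, with medians of 0.21 and 0.22. Scaled by library totals, 10 subunits had a higher fold in cohort 2 and 4 a lower one. The median of the subunits was then 0.10, and that of all genes -0.38. Shares of all genes called under these alternatives are not given here. Fits without the 2 mice or with home cage mice alone also use fewer libraries. The lower counts of subunits there cannot be told from fewer calls over all genes.

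The values within each mouse show where the difference lay (plot of ratios by mouse). The median log2 ratio of TRAP over lysate over the 83 subunits was 0.37 in Female2, -0.004 in Male1 and -0.23 in Female1 of the run mice of cohort 2, and -0.18, -0.14 and -0.06 in the home cage mice of cohort 2. In cohort 1 it ran from -0.52 to -0.40 in the 4 run mice and from -0.42 to -0.29 in the 4 home cage mice. All 6 mice of cohort 2 thus lay above all 8 of cohort 1, and Female2 stood above the other mice of its cohort in each complex. Markers of microglia and of vessel cells had medians in the same direction as the subunits. The median cohort difference of the fold was 0.40 over 12 microglial markers (3 called higher, 0 lower), 0.40 over 8 endothelial markers (1 higher, 0 lower) and 0.27 over 11 mural markers (3 higher, 0 lower). Microglial markers summed to 58209 to 79699 CPM in TRAP of cohort 2 and 27861 to 49807 CPM in TRAP of cohort 1. Endothelial markers summed to 374 to 534 CPM in TRAP of cohort 2 and 112 to 207 CPM in TRAP of cohort 1. Mural markers summed to 154 to 312 CPM in TRAP of cohort 2 and 69.0 to 145 CPM in TRAP of cohort 1. The pan-neuronal markers went the other way: their fold was called lower in cohort 2 than in cohort 1 for 9 of 10, with a median difference of -0.96, and their summed level in TRAP was 1864 to 2611 CPM in cohort 2 and 4848 to 8594 CPM in cohort 1. Median differences were also below 0 for excitatory (-1.175), inhibitory (-0.914) and parvalbumin (-0.813) neuron markers. Oligodendrocyte markers had -0.444 (2 of 8 called lower) and astrocyte markers -0.403 (3 of 8 called lower). The 7 macrophage markers had 0.277, with 0 called. The part of any of these cell types in the cohort difference of the subunits was not tested.

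**Figure D3:**
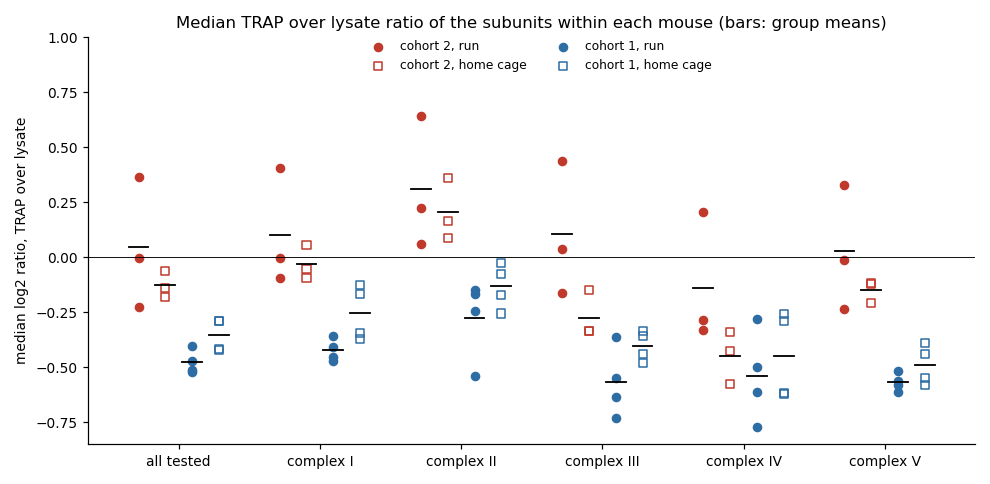
Median log2 ratio of TRAP over total lysate CPM within each mouse (y axis), over all 83 tested subunits and per complex; red is cohort 2, blue cohort 1, filled circles run mice and open squares home cage mice, and bars are group means. In the left column the 6 mice of cohort 2 lie between -0.23 and 0.37 and the 8 of cohort 1 between -0.52 and -0.29.

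The 3 subunits with the smallest p for that difference were accessory subunits of complex I. Ndufb8 had ratios of -0.35, 0.07 and 0.45 in run mice and -0.40, -0.07 and 0.12 in home cage mice of cohort 2, against -1.51 to -0.90 in run mice and -1.11 to -0.98 in home cage mice of cohort 1. The cohorts did not overlap, and the fitted difference was 1.14 ± 0.19 log2 units (adjusted p = 1.6e-04 in edgeR). Ndufa7 differed by 0.94 ± 0.16 and Ndufa9, which helps to bind ubiquinone near the joint of the arms, by 0.79 ± 0.14 (adjusted p = 1.9e-04 and 2.8e-04 in edgeR). Without the 2 mice the differences were 0.82 ± 0.22 for Ndufb8, 0.69 ± 0.18 for Ndufa7 and 0.59 ± 0.18 for Ndufa9, all still called. Next were Sdhd with 0.74 ± 0.14, Atp5e, the epsilon subunit of F1, with 1.01 ± 0.19, Uqcrh with 1.10 ± 0.21 and Cox4i1 with 0.88 ± 0.18. Without the 2 mice Sdhd had 0.55 ± 0.16 and was still called. Atp5e then had 0.59 ± 0.19, Uqcrh 0.81 ± 0.26 and Cox4i1 0.53 ± 0.19, and none of these 3 was still called. Uqcrh and Sdhd were called higher in TRAP within cohort 2 (0.62 ± 0.16 and 0.39 ± 0.10) and lower within cohort 1 (-0.49 ± 0.14 and -0.36 ± 0.09). Without the 2 mice, Uqcrh had 0.30 ± 0.22 and Sdhd 0.17 ± 0.14 within cohort 2, neither called. Cox7a2l had folds of 1.49 ± 0.13 in cohort 2 and 1.47 ± 0.11 in cohort 1, a difference of 0.02 ± 0.16 that was not called (-0.07 ± 0.19 without the 2 mice, not called).

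Levels themselves differed strongly between the cohorts in both fractions. In TRAP, 28 subunits were called higher in cohort 2 than in cohort 1 (33.6% of all genes) and 31 lower (31.6% of all genes), and in total lysate 17 were called higher (36.3% of all genes) and 54 lower (35.1% of all genes), with medians of 0.08 and -0.55 log2 units. Ndufb4 and Uqcrb were among the lowest, with -2.71 and -2.60 in TRAP and -3.28 and -2.70 in total lysate. The difference followed the base composition of the transcript: Spearman's rho with GC content was 0.70 in TRAP and 0.71 in total lysate across the 83 subunits, and 0.74 and 0.79 across all genes tested, as a description over genes that share these libraries. Fold of TRAP over lysate had a rho of 0.41 with GC across the 83 subunits and 0.12 across the 16567 genes with a GC value. Cohort was a term in, or part of the groups of, every comparison.

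**Figure D4:**
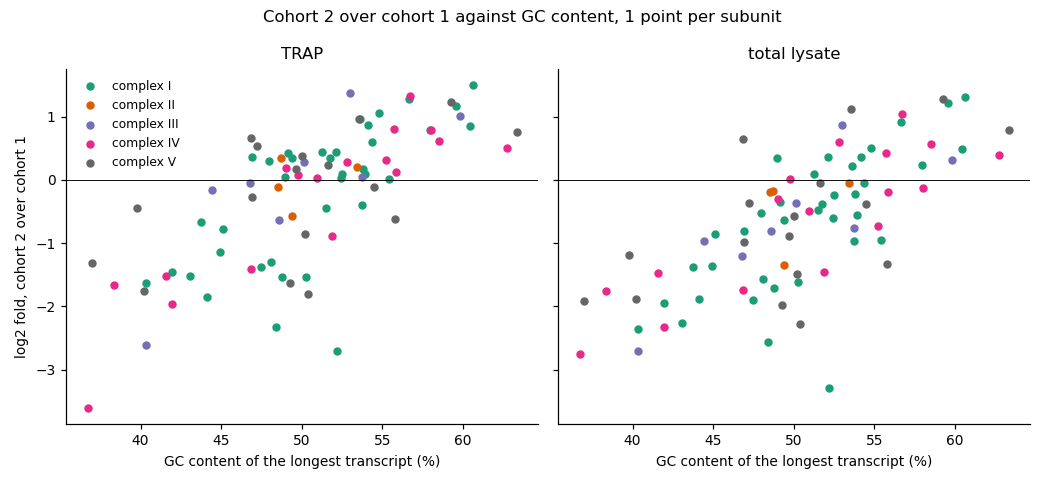
Fitted log2 fold of cohort 2 over cohort 1 (y axis) against the GC content of the longest transcript (x axis, percent) for the 83 tested subunits, in TRAP (left) and total lysate (right), coloured by complex. Folds tend to be lower for subunits poor in G and C in both fractions; rho is 0.70 in TRAP and 0.71 in total lysate.

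Running was set against the home cage separately in TRAP and in total lysate (14 libraries in each fit, cohort included), which asks whether 1 h on the rotarod changed these transcripts. No subunit was called in TRAP (0 of 83 in edgeR and 0 in DESeq2; 0.046% of 15203 genes were called), and 1 had an unadjusted p under 0.05. The log2 folds of run over home cage ran from -0.36 (Cox4i2) to 0.87 (Cox7b2), with a median of 0.10 and a median SE of 0.13, and 65 of 83 were above 0. Without the 2 run mice of cohort 2 the median was -0.05 and 23 of 83 were above 0, so the direction of the median rests on those mice. By complex the medians with all mice were 0.09 for I, 0.05 for II, 0.15 for III, 0.21 for IV and 0.05 for V, and without the 2 mice they lay between -0.07 and -0.01.

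In total lysate no subunit was called either (0 of 83 in edgeR and 0 in DESeq2; 0.0311% of 16091 genes were called), and 2 had an unadjusted p under 0.05. The folds ran from -0.34 (Ndufa4l2) to 0.24 (Cox6a2), with a median of 0.10, a median SE of 0.09 and 66 of 83 above 0; without the 2 mice the median was 0.09 and 67 were above 0. The run effect did not differ between the fractions for any subunit past the threshold (0 in edgeR, 0 in DESeq2, 1 at an unadjusted p under 0.05; 0.0% of 16716 genes were called). A p that misses the threshold does not show equal levels.

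Split by cohort, the medians of run over home cage in TRAP were 0.25 in cohort 2 and -0.04 in cohort 1, with 66 and 31 of 83 above 0, and in total lysate 0.04 in cohort 2 and 0.12 in cohort 1, with 58 and 69 above 0 (plot of run folds). No subunit passed the test of the difference between cohorts in TRAP (0 in edgeR and DESeq2, 11 at an unadjusted p under 0.05; 0.0% of 16289 genes) or in total lysate (0 in edgeR and DESeq2, 0 at an unadjusted p under 0.05; 0.0% of 17101 genes). Without the 2 mice, which leaves 1 run mouse in cohort 2, the cohort 2 median was -0.08 in TRAP, with 17 of 83 above 0, and -0.001 in total lysate, with 40 above 0.

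**Figure D5:**
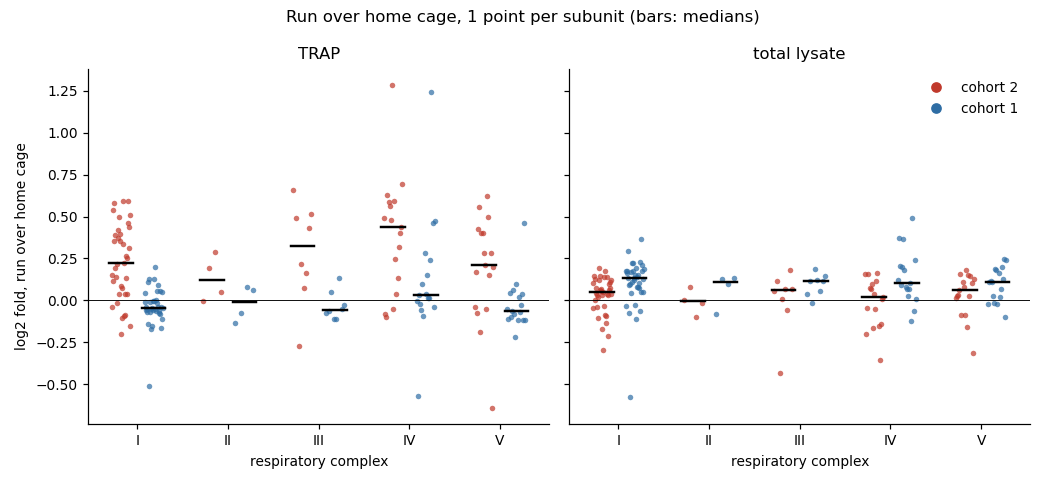
Fitted log2 fold of run over home cage within cohort 2 (red) and cohort 1 (blue) for the 83 tested subunits by complex, in TRAP (left) and total lysate (right); bars are medians. In TRAP the cohort 2 points of complexes I, III, IV and V centre above 0, at medians of 0.22, 0.32, 0.44 and 0.21, and those of cohort 1 near 0.

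The smallest p in TRAP belonged to 3 subunits of complex IV. Cox7c, a small subunit, had 39.0, 43.1 and 52.3 CPM (scaled within TRAP) in run mice of cohort 2 and 93.4, 131, 146 and 206 CPM in those of cohort 1, against 32.6, 34.4 and 34.5 CPM in home cage mice of cohort 2 and 75.0, 81.4, 98.7 and 165 CPM in those of cohort 1. Run mice of cohort 2 all lay above their home cage mice, while the groups of cohort 1 overlapped. Male1 and Female2, with Y-linked levels against their labels, are among these run mice of cohort 2. A Cox7c run fold without them is not given here. The log2 fold was 0.44 ± 0.18 (adjusted p = 1.00 in edgeR), and this was the subunit with an unadjusted p under 0.05. Cox7c shares 53.0% of its 50-base words with other genes, foremost the pseudogene Gm10012. Cox7b had 0.20 ± 0.10 and Cox6b2 0.72 ± 0.42 (adjusted p = 1.00 for both in edgeR). For Cox7b, run mice of cohort 1 had 498 to 552 CPM, all above the 403 to 464 CPM of their home cage mice, while run mice of cohort 2 had 120 to 142 CPM, overlapping the 95.2 to 134 CPM of theirs.

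In total lysate the smallest p belonged to Ndufa12, Ndufv3 and Cox6a1. Ndufa12, an accessory subunit near the matrix arm, had 173, 186 and 189 CPM (scaled within total lysate) in run mice of cohort 2 and 245 to 265 CPM in those of cohort 1, against 159, 163 and 180 CPM in home cage mice of cohort 2 and 211 to 242 CPM in those of cohort 1. The groups overlapped in cohort 2 and not in cohort 1, and the log2 fold was 0.16 ± 0.07 (adjusted p = 0.66 in edgeR). Ndufv3 had 0.16 ± 0.07 and Cox6a1 0.15 ± 0.07 (adjusted p = 0.67 for both in edgeR). Of the 80 tested genes of the other pathway lists, 0 were called in either fraction by edgeR or by DESeq2, and 5 in TRAP and 10 in total lysate had an unadjusted p under 0.05. In the cohort difference of the TRAP over lysate fold, 24 of the 80 were called higher in cohort 2 (7.52% of all genes were) and 1 lower (11.4% of all genes).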

How the data were processed

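The authors deposited 1 table of raw counts per gene symbol for 28 libraries, made from Nextera XT libraries of poly(A) RNA (RNeasy Mini), per the labels' protocols. The submitters' processing notes name GRCm38 with STAR 2.7.7a, featureCounts and DESeq2. The annotation, strand setting and handling of reads with several matches were not given in the sources used here, so reads of antisense partners cannot be told apart for the 26 subunits with exons opposite another gene. Mitochondrially encoded subunits were not analysed here, and 1 subunit that enters the counts is left out of the plot of folds by complex. Groups came from the titles; columns with no cohort mark were taken as cohort 1. Nothing says how the tissue was divided beyond 1 mouse per pair of libraries. No pair of libraries of 1 group agreed within sampling noise (lowest chi-square per gene 69.6 over 84 pairs).

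Counts were tested with the quasi-likelihood F test of edgeR 4.0.16 under R 4.3.3, with TMM factors, filterByExpr and Benjamini-Hochberg adjustment over all genes tested at 5%. SEs are of the fitted log2 fold. TRAP and lysate libraries of 1 mouse share the animal, per the titles; the fit has no mouse block, and the correlation of their deviations from group and cohort means ran from -0.06 to 0.11, above 0.1 in 1 of 14 mice. Alternatives were a mouse block, DESeq2 1.42.0, its size factors, library totals, no filter, no cohort term, a GC correction, mice left out and other lengths. The fits were tested on simulated data. Ratios within a mouse used log2(CPM + 0.5). Exon lengths and shared 50-base words came from GENCODE vM21, which matched all 84 symbols, and promoters from RefSeq (GRCm38.p6); the NRF1 letters were shortened after a longer form had been searched. Marker and pathway lists, and the members, were chosen with earlier results of these data known. The text names, per complex, the 2 highest and 2 lowest TRAP over lysate folds and the highest levels, core subunits, isoform sets, the 3 smallest p in each run comparison and in the cohort difference, and the extremes of each pathway list; other subunits, such as Ndufb4, Atp5e and those that make up a small count, were added after their values were seen.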

Additional observations from a re-analysis of the deposited data

Results flagged for a closer look

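Of 60 groups of mice tested for a sample far from the others, 2 held one, and chance alone marks about 1 in 20. Cox4i1 had 2055 CPM (2055.07, scaled within total lysate) in the lysate library of run mouse Female1 of cohort 1, the highest of the 7 run mice. Cox6a2 had 19.5 CPM (19.465, scaled within TRAP) in the TRAP library of run mouse Female2 of cohort 2, a mouse whose Y-linked levels went against its labelled sex.

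The TRAP over lysate fold was higher in cohort 2 for 39 subunits by the test of the difference itself, where 7.52% of all genes were called higher. The differences with the smallest p were 1.14 log2 units for Ndufb8, 0.94 for Ndufa7 and 0.79 (0.791) for Ndufa9, each higher in cohort 2. Without the 2 run mice of cohort 2 they were 0.82, 0.69 and 0.59. The pan-neuronal, oligodendrocyte and astrocyte markers differed in the opposite direction (medians -0.96, -0.44 and -0.40). The microglial, endothelial and mural markers differed in the same direction as the subunits (medians 0.40, 0.40 and 0.27). The part of these cell types was not tested.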

How the results depend on the processing

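The count of subunits whose TRAP over lysate fold differed between cohorts was 39, and it was 14 by library totals (10 higher, 4 lower), 5 without the 2 run mice of cohort 2 and 3 with home cage mice alone; these 3 alternatives were chosen after seeing the data, the last 2 use fewer samples, and the cause was not tested further. The TRAP over lysate fold was above 0 for 24 of 83 subunits over both cohorts and for 39 in cohort 2 alone. Sign changes in cohort 2 alone included Atp5c1 (0.02), Atp5j (0.041), Cox4i1 (0.04), Ndufa7 (0.331), Ndufa9 (0.397), Ndufb8 (0.001), Sdhd (0.385) and Uqcrh (0.619), among others. Without the 2 run mice, the cohort 2 folds were -0.05 for Atp5c1, -0.08 for Atp5j, -0.32 for Cox4i1 and -0.34 for Ndufb8. Those of Ndufa7 (0.07), Ndufa9 (0.17), Sdhd (0.17) and Uqcrh (0.30) stayed above 0. By library totals the TRAP over lysate fold over both cohorts changed sign for 16 of 83, among them Ndufb11 (-0.20), Ndufa6 (-0.15), Ndufb7 (-0.02), Atp5d (-0.032), Cox6a1 (-0.374), Ndufa1 (-0.391), Ndufs7 (-0.126), Ndufs8 (-0.331), Ndufv3 (-0.256), Sdhb (-0.466) and Uqcr11 (-0.385), and with the GC correction for Uqcrb (0.259). Of the other values for named subunits, 517 kept their direction and side of the threshold, 33 lost the call and 27 gained it. With the replicate block on the mouse, 58 subunits were called (14 higher, 44 lower), as without it; 6 of 14 TRAP libraries correlated best with the lysate of their own mouse. Leaving out each mouse in turn, the median of run over home cage ran from 0.015 to 0.141 in TRAP and from 0.06 to 0.134 in total lysate. The count of subunits called in each run comparison stayed at 0 under every alternative run. Rare isoforms such as Cox8b, at medians under 1 CPM, are limited by depth.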

Other observations

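Ndufs5, a subunit of complex I, was listed at 0.116 to 0.264 CPM in TRAP and 0.067 to 0.366 CPM in total lysate, while BC002163, with which it shares 50.2% of its 50-base words, had 5.64 to 14.6 CPM in TRAP and 5.42 to 15.3 CPM in total lysate. The level of Ndufs5 is therefore uncertain.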
